A study of Mus musculus with 18 samples.

Results

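The 10 genes described here mark macrophages and other mononuclear phagocytes and were read in the caput epididymis of C57BL/6J mice given ethanol (EtOH) and of their controls. They are Adgre1, Csf1r, Cx3cr1, Cd14, Mrc1, Cd68, Lyz2, C1qa, C1qb and C1qc. Members were chosen by name, and all 10 were found among the 53819 gene entries of the count tables and all 10 were among the 18618 genes that passed the filter on low counts. RNA-seq of total RNA was done on whole caput, the head of the epididymal duct, where sperm begin to mature, in 18 libraries. At 10 weeks there were a control group, a 6% EtOH group and a 10% EtOH group. A second control group, a second 6% EtOH group and a second 10% EtOH group come from after cessation of EtOH (1 month in the title of the series). Each of the 6 groups held 3 libraries. No source used here gives how the ethanol was administered, how long it ran before cessation, or how old the mice were.

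Mononuclear phagocytes are the tissue macrophages, monocytes and dendritic cells that take up dying cells and debris and sample their surroundings. In the epididymis they lie around and within the base of the duct epithelium, where many express Cx3cr1 and reach between the epithelial cells towards the lumen. The receptor encoded by Csf1r binds the growth factors CSF1 and IL-34 and keeps most macrophages alive. Adgre1 encodes F4/80, the usual surface marker of mouse macrophages, and Mrc1 encodes the mannose receptor CD206. CD14 presents bacterial lipopolysaccharide to TLR4, CD68 is a glycoprotein of the endosome and lysosome, and Lyz2 encodes lysozyme. The chains C1qa, C1qb and C1qc assemble into C1q, which starts the classical complement pathway and which macrophages secrete.

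Library totals ran from 15.6 to 21.1 M assigned reads at 10 weeks and from 10.7 to 17.2 M after cessation. Replicate pairs differed by a chi-square per degree of freedom of 5.79 or more, well past sampling noise, so each library was counted as a separate sample. Each title carries its own identifier, but no label says whether it stands for a separate animal, litter or day, so the spread behind each p-value may be partly technical. Replicate 3 of the 10% EtOH group at 10 weeks carries an identifier of another form than the rest. For replicate 1 of the 6% EtOH group after cessation the sample identifier in the label and in its table differ. The members' medians, and the single values that moved most with either library, are given also without it. The 12 markers of caput principal cells summed to between 39692 and 122752 CPM (counts scaled to library size, with TMM factors), so the labelled tissue was present in all 18. Their lowest sums were in control replicate 3 and 6% EtOH replicate 1 after cessation, at 39897 and 39692 CPM.

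All 10 genes were counted in every library, with between 46 and 2404 reads. Levels were divided by the merged length of all annotated exons of each gene, which can exceed the length of the transcript present. On that scale Lyz2 was the most abundant at 47.7 ± 22.6 CPM per kb (mean and SD, n = 18). It was followed by C1qa at 34.8 ± 10.3 and C1qb at 30.1 ± 11.3. Lyz2 was above C1qa in 16 of 18 libraries and C1qa above C1qb in 15 of 18. Cd68 came next at 21.0 ± 7.71 CPM per kb, C1qc at 15.5 ± 4.43 and Csf1r at 9.19 ± 2.03, and C1qc was above Csf1r in 18 of 18 libraries. The place of C1qc depends on the length used. Before division C1qa, C1qb and C1qc had means of 36.1, 32.7 and 30.0 CPM, and their merged lengths were 1040, 1088 and 1931 bases. The lowest levels per kb were those of Cx3cr1 at 6.40 ± 1.49, Adgre1 at 6.38 ± 5.37, Cd14 at 5.82 ± 5.72 and Mrc1 at 4.45 ± 1.72. Adgre1, Cd14 and Mrc1 followed no fixed order among themselves, and Cd14 exceeded Mrc1 in 6 of 18 libraries. Lyz1, the close copy of Lyz2 from which reads could be misassigned, stood at 0.113 to 2.32 CPM and Lyz2 at 30.2 to 142.7 CPM.

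The genes also differed in how widely they ranged over the libraries. Csf1r varied 2.19-fold between its lowest and highest library and Cx3cr1 2.15-fold. Adgre1 varied 7.75-fold and Cd14 14.9-fold. Within groups, the coefficient of variation was 86.7% for Adgre1 and 76.4% for Cd14, against 21.5% for Csf1r and 23.3% for Cx3cr1. Control replicate 1 after cessation was the highest library for 7 of the 10 genes.

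**Figure D1:**
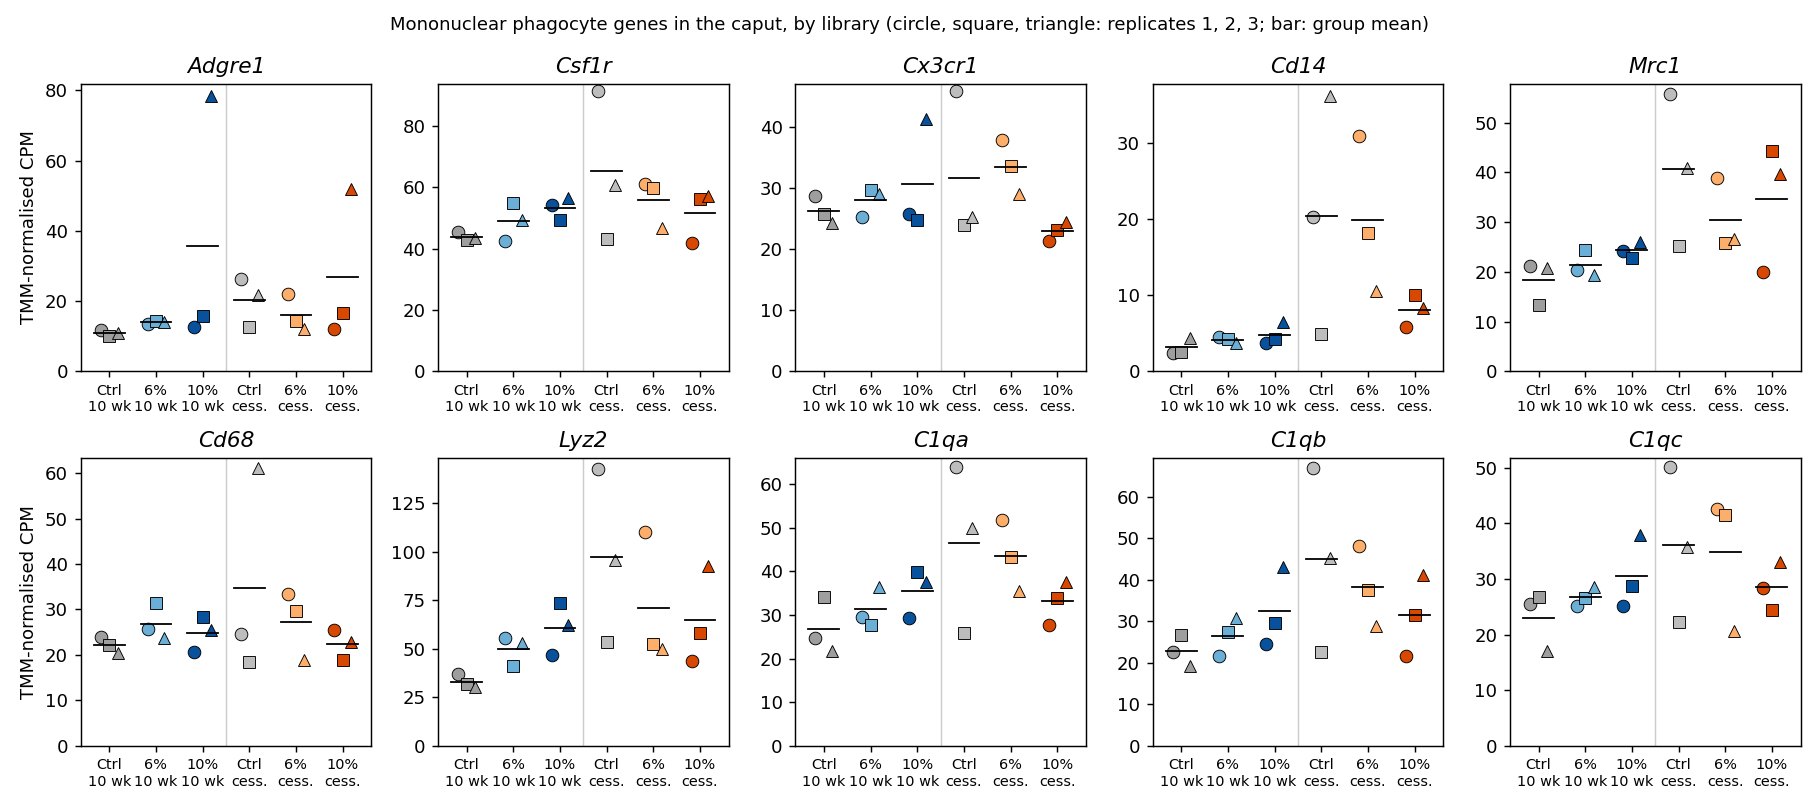
TMM-normalised CPM of the 10 genes (vertical axis, 1 panel per gene, starting at 0) in each library, by group along the horizontal axis, with replicates 1, 2 and 3 as circle, square and triangle and a bar at the group mean. Adgre1 is set by 2 libraries at 78.5 and 52.0 CPM, and Cd14 lies at or under 6.49 CPM in the 9 libraries of 10 weeks.

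At 10 weeks, ethanol was compared with control to ask whether phagocyte transcripts differ in the treated caput. No member passed at an adjusted p under 0.05 at either dose, where 0% of all 18618 genes passed. Fitted values lay above 0 for 10 of 10 members with 6% EtOH, with a median log2 fold change of 0.22, and for 10 of 10 with 10% EtOH, with a median of 0.41. Over all genes 48.9% and 48.8% lay above 0, and the medians were -0.0069 and -0.011. At an unadjusted p under 0.05 stood 0 members with 6% EtOH, where 2.36% of all genes did, and 2 with 10% EtOH, Adgre1 and Lyz2, where 13.4% did. Both doses were set against the same 3 control libraries. These are whole-tissue libraries. Phagocyte number, RNA per phagocyte and RNA of these genes from other cells cannot be told apart in them. The summed markers of principal cells were also higher, at 76147 to 84190 CPM in controls, 89128 to 102803 with 6% EtOH and 101713 to 122752 with 10% EtOH. Gpx5 and Adam7, at up to 50756 and 28609 CPM over the 18 libraries, weigh most in those sums. With 10% EtOH the summed markers of fibroblasts (675 to 830 CPM in controls, 947 to 1079 treated), smooth muscle (1381 to 1707 and 1826 to 2126) and endothelium (162 to 199 and 207 to 227) were higher without overlap too, and those of adipocytes lower (113 to 127 and 99.2 to 102). The part of these in the members' values was not tested.

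Lyz2 had the clearest separation at 10 weeks. Its 3 control libraries held 37.0, 31.9 and 30.2 CPM, the 6% EtOH libraries 55.4, 41.0 and 52.8, and the 10% EtOH libraries 46.5, 73.5 and 62.2. Every treated library lay above every control. The log2 fold change was 0.59 ± 0.36 (SE) with 6% EtOH (95% interval -0.17 to 1.34, edgeR adjusted p = 1) and 0.88 ± 0.36 with 10% EtOH (0.12 to 1.63, unadjusted p = 0.0259, adjusted p = 0.322). Fitted on the 9 libraries of 10 weeks alone, the 10% EtOH value of Lyz2 passed with an adjusted p of 0.0228, in a comparison where 1059 genes passed. The share of all genes tested in that fit is not given here. Of 6 alternative settings, beside those leaving out 1 library, Lyz2 passed in 2, this one and the fit without the low-count filter.

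Adgre1 also separated the groups, with 1 library carrying most of the difference. Control libraries stood at 11.9, 10.1 and 10.99 CPM, those with 6% EtOH at 13.4, 14.5 and 14.1, and those with 10% EtOH at 12.8, 15.9 and 78.5. The control and treated groups did not overlap at either dose, but replicate 3 of the 10% EtOH group lay far above all others. The log2 fold change was 0.34 ± 0.61 with 6% EtOH (adjusted p = 1) and 1.70 ± 0.61 with 10% EtOH (95% interval 0.40 to 2.99, unadjusted p = 0.0138, adjusted p = 0.299). Without that replicate, the 10% EtOH value for Adgre1 was 0.38 (adjusted p = 0.906).

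Csf1r and Mrc1 lay above control in all 3 libraries with 10% EtOH only. For Csf1r, the controls held 45.4, 42.7 and 43.4 CPM, the 6% EtOH libraries 42.5, 55.0 and 49.5, and the 10% EtOH libraries 54.1, 49.2 and 56.3. The Csf1r log2 fold change with 10% EtOH was 0.28 ± 0.20 (95% interval -0.14 to 0.70, adjusted p = 0.554). Mrc1 stood at 21.2, 13.3 and 20.8 CPM in controls, at 20.3, 24.5 and 19.4 with 6% EtOH and at 24.3, 22.9 and 26.0 with 10% EtOH, a log2 fold change of 0.40 ± 0.29 at the higher dose (adjusted p = 0.556). In all, 2 members with 6% EtOH and 4 with 10% EtOH had groups that did not overlap and lay higher. Over all genes, 9.67% and 15.2% did so.

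The other 6 genes overlapped control at both doses. Their log2 fold changes with 10% EtOH ran from 0.17 ± 0.32 for Cd68 to 0.63 ± 0.54 for Cd14, which was 0.35 without replicate 3, and that of Cx3cr1 was 0.22 ± 0.22. Cx3cr1 stood at 28.7, 25.8 and 24.3 CPM in controls, at 25.4, 29.7 and 29.0 with 6% EtOH and at 25.8, 24.8 and 41.4 with 10% EtOH. Here too replicate 3 of the 10% EtOH group was the highest, and without it the Cx3cr1 value was -0.059. That library lay above the median of the 18 libraries for 10 of 10 members. Without it, 9 of 10 members stayed above 0 and their median was 0.30.

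**Figure D2:**
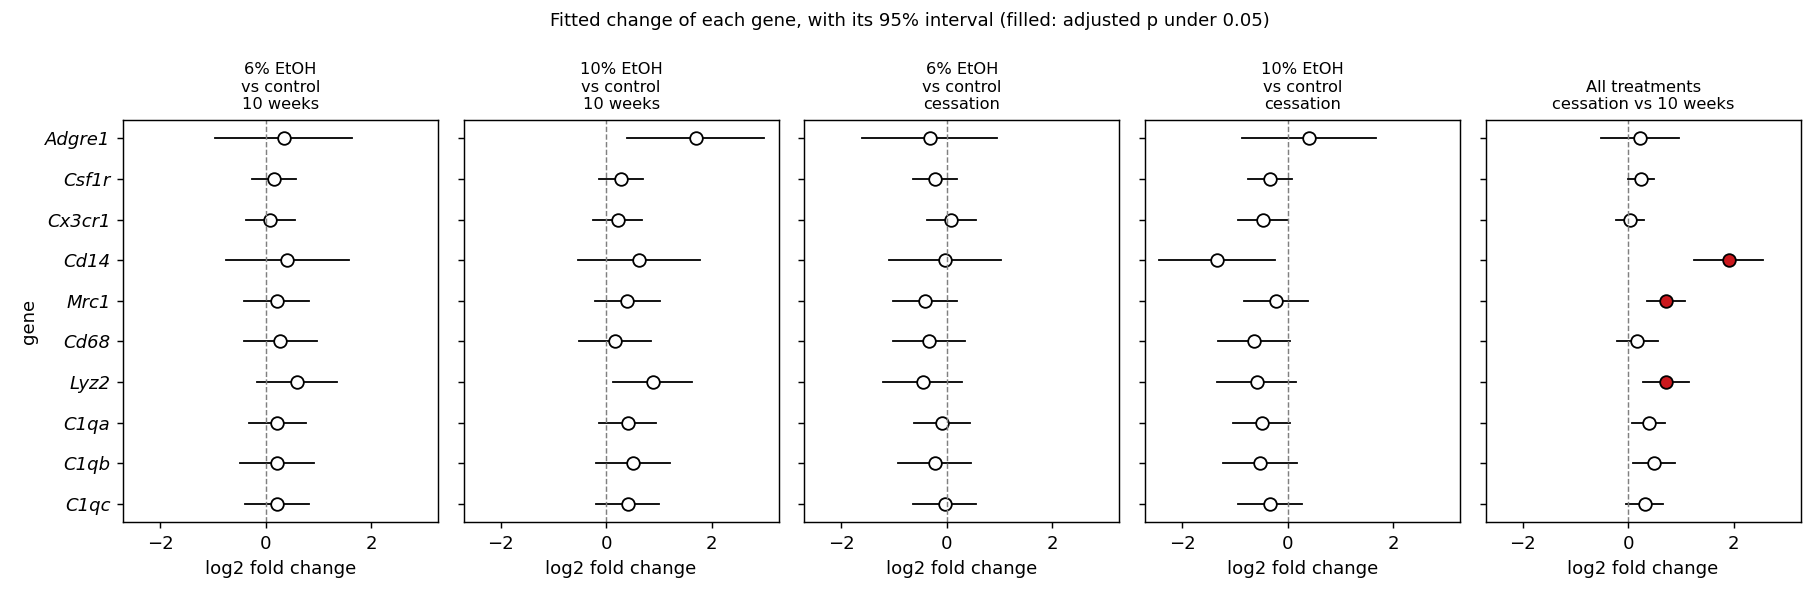
Fitted log2 fold change of each gene (horizontal axis) with its 95% interval in 5 comparisons, 1 panel each, filled where the adjusted p was under 0.05. With EtOH no point is filled, and between the times Cd14, Mrc1 and Lyz2 are filled, at 1.90, 0.72 and 0.72.

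Other genes were ranked by how closely they followed Adgre1. With the group means removed, the 5 genes whose log2 levels followed Adgre1 most closely over the 18 libraries were Prkcb (r = 0.95), Pik3ap1 (0.94), Rac2 (0.94), Fcrls (0.94) and Nckap1l (0.94), of 13267 genes compared. Prkcb and Pik3ap1 encode signalling proteins of leukocytes, Rac2 a small GTPase of blood cells, Fcrls an Fc-receptor-like protein of mouse macrophages and microglia, and Nckap1l a blood-cell regulator of actin. Rac2 stood at 23.2 and 15.8 CPM in replicate 3 of the 10% EtOH groups at 10 weeks and after cessation, and between 2.09 and 9.68 CPM in the other libraries. Fcrls stood at 36.2 and 30.5 CPM in that pair and reached at most 13.02 elsewhere. These genes were picked by their likeness to Adgre1 in the same libraries, so high levels in that pair follow from the choice. Csf1r, at 56.3 and 57.0 CPM, was inside the range of its other libraries there.

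**Figure D3:**
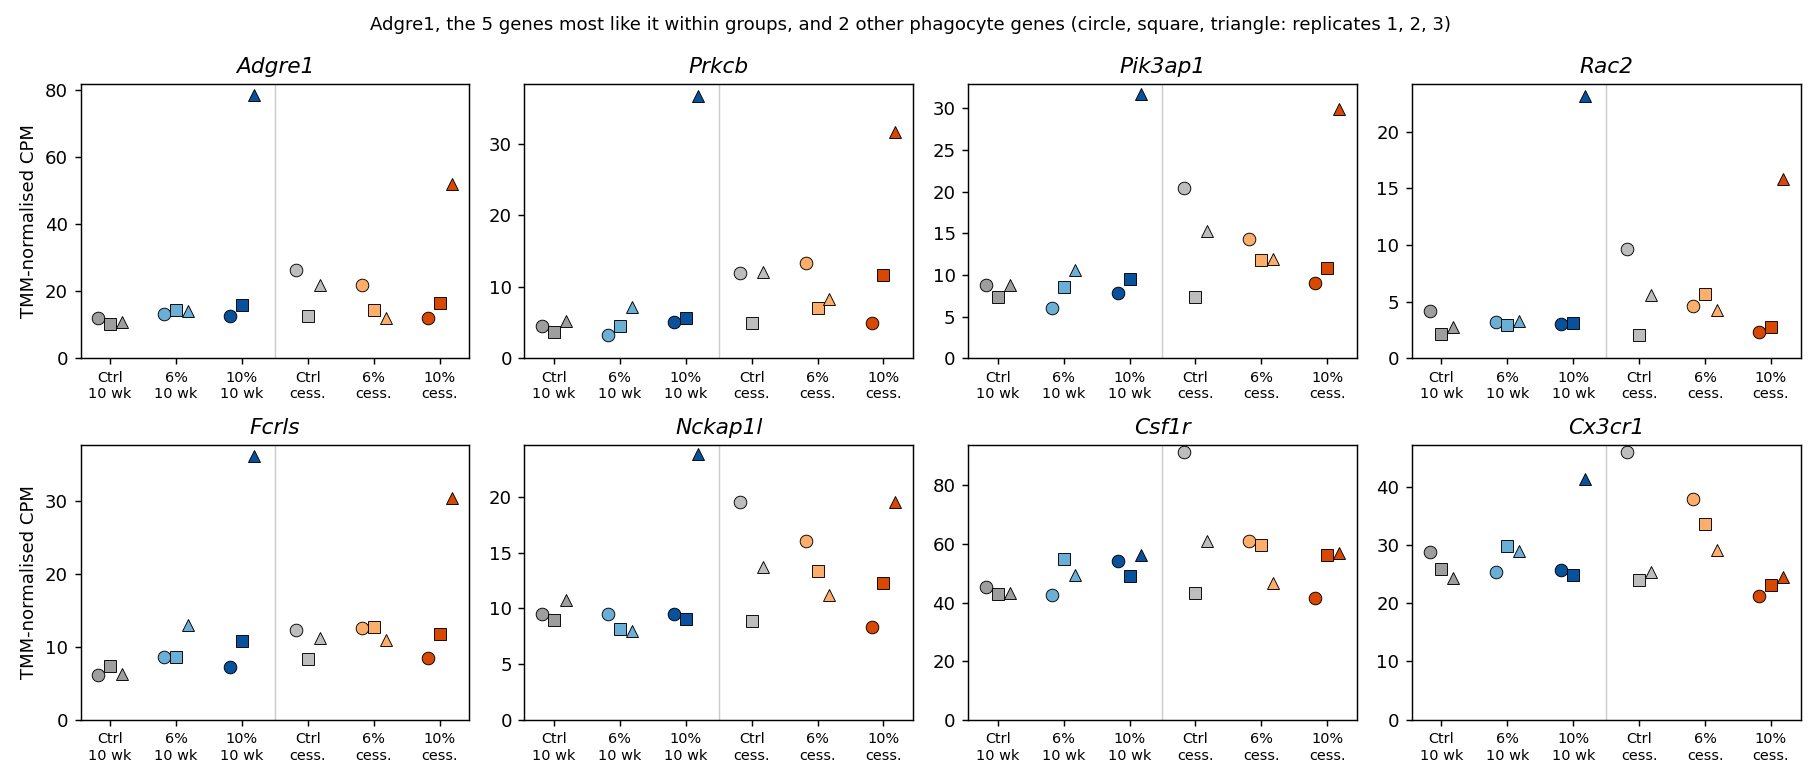
TMM-normalised CPM by library (axes and symbols as for the 10 members) of Adgre1, of the 5 genes most like it within groups, and of Csf1r and Cx3cr1. The triangles of both 10% EtOH groups stand far above the rest for Adgre1 and for Rac2 and Fcrls, and not for Csf1r, at 56.3 and 57.0 CPM.

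Summed over 10 marker genes of B cells, these same libraries held 25.6 and 35.1 CPM, and the others 4.51 to 25.1 CPM. Most of the sum was Ighm, at 20.2 and 29.3 CPM, while Ms4a1 was at 0 reads in 10 of 18 libraries. Whether cells other than macrophages carried part of the high Adgre1 was not tested.

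After cessation, most members' fitted values lay below control, with groups that overlapped. No member passed at either dose, and 0% of all genes did. With 6% EtOH, 1 of 10 members had a fitted value above 0 and the median log2 fold change was -0.23, or 0 of 10 and -0.49 without replicate 1 of that group. With 10% EtOH it was again 1 of 10, with a median of -0.48. Over all genes 48.0% and 47.9% lay above 0. At an unadjusted p under 0.05 stood 0 members with 6% EtOH, against 1.62% of all genes, and 1 with 10% EtOH, Cd14, against 6.66%. No member had groups that did not overlap, where 4.01% and 6.46% of all genes did. The control libraries themselves were far apart here, replicate 1 above the 18-library median for 10 of 10 members and replicate 2 for 2 of 10. Leaving out 1 library could change the sign of the 6% EtOH values of Csf1r, Cd68, C1qa, C1qb, C1qc, Cx3cr1 and Cd14. Members also varied together within groups (median r 0.63 over 45 pairs), so their signs at either time are not separate observations.

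Cd14 had the largest fitted difference after cessation. Its control libraries held 20.2, 4.91 and 36.0 CPM, the 6% EtOH libraries 30.9, 18.2 and 10.6, and the 10% EtOH libraries 5.84, 10.1 and 8.36. The 10% EtOH libraries were low and close together, and only control replicate 2 was lower than all of them. The log2 fold change was -1.33 ± 0.52 with 10% EtOH (95% interval -2.43 to -0.24, unadjusted p = 0.0202, adjusted p = 0.744) and -0.03 ± 0.50 with 6% EtOH (adjusted p = 1). Leaving out control replicate 2 moved the Cd14 value with 10% EtOH to -1.80 (adjusted p = 0.0343), with 191 genes then passing, and leaving out control replicate 3 moved it to -0.64.

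Adgre1 was the member above 0 with 10% EtOH after cessation. Its controls held 26.2, 12.7 and 21.9 CPM, the 6% EtOH libraries 22.0, 14.4 and 12.1, and the 10% EtOH libraries 12.1, 16.5 and 52.0. The log2 fold change of 0.41 ± 0.60 (adjusted p = 0.892) became -0.50 for Adgre1 without 10% EtOH replicate 3. Cx3cr1 stood at 45.9, 23.9 and 25.3 CPM in controls, at 37.9, 33.6 and 29.0 with 6% EtOH and at 21.3, 23.1 and 24.5 with 10% EtOH, a log2 fold change of -0.47 ± 0.22 at the higher dose (adjusted p = 0.744). Without control replicate 1 the Cx3cr1 value was -0.10. Cd68 held 24.5, 18.5 and 61.2 CPM in controls, 33.4, 29.8 and 18.8 with 6% EtOH and 25.4, 18.9 and 22.9 with 10% EtOH. Control replicate 3 set its fitted value of -0.63 ± 0.33, which was 0.060 for Cd68 without that library.

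The doses were also set against each other. At 10 weeks, 9 of 10 members had a fitted value above 0 for 10% against 6% EtOH, with a median log2 fold change of 0.19, where 49.3% of all genes lay above 0. No member passed, and 0% of all genes passed. Adgre1 alone had an unadjusted p under 0.05 (1.35 ± 0.60, unadjusted p = 0.0403, adjusted p = 0.994), where 2.83% of all genes did, and its value was 0.034 without 10% EtOH replicate 3, when 7 members lay above 0 with a median of 0.031. At 10 weeks no member's groups were apart, where 13.6% of all genes' were. After cessation 2 of 10 members lay above 0, with a median of -0.29, where 47.5% of all genes did, and again no member and 0% of all genes passed. The 2 members with an unadjusted p under 0.05 (7.85% of all genes), Cx3cr1 and Cd14, did not overlap there and lay lower with 10% EtOH, at -0.55 ± 0.22 (unadjusted p = 0.0249, adjusted p = 0.634) and -1.30 ± 0.52 (unadjusted p = 0.0229, adjusted p = 0.634). Without 6% EtOH replicate 1 they were -0.44 for Cx3cr1 and -0.83 for Cd14, and the members' median was -0.091. Of all genes, 5.42% had groups that did not overlap in that direction.

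The difference between the EtOH effects of both times was tested directly. For 10% EtOH, cessation minus 10 weeks, 0 of 10 members lay above 0, where 46.9% of all genes did. Their median was -0.85 on the log2 scale, and 6 had an unadjusted p under 0.05, against 7.44% of all genes. No member passed after adjustment, and 0% of all genes did. The lowest unadjusted p was that of Lyz2, at -1.46 ± 0.50 (unadjusted p = 0.0101, adjusted p = 0.645), and Cd14 had the largest difference, at -1.96 ± 0.75 (adjusted p = 0.645). Without replicate 3 of the 10% EtOH group at 10 weeks the median was -0.67 and 1 member, Adgre1, lay above 0, at 0.029. For 6% EtOH the median was -0.44 (-0.75 without 6% EtOH replicate 1 after cessation), again with 0 of 10 members above 0 (50.2% of all genes), none past the threshold (0%) and none at an unadjusted p under 0.05 (3.01%), and the lowest was Lyz2 at -1.05 ± 0.50 (adjusted p = 1). These differences share their control libraries with the comparisons above.

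Between the times, 9 libraries stood against 9. Averaged over the 3 treatments, 3 of 10 members rose from 10 weeks to cessation and none fell, where 17.9% of all genes passed and 10.7% passed as higher. All 10 fitted values lay above 0, with a median log2 fold change of 0.35, against 55.2% of all genes and a median of 0.050. The members' median was 0.48 without 10% EtOH replicate 3 of 10 weeks and 0.28 without 6% EtOH replicate 1 after cessation. At an unadjusted p under 0.05 stood 5 of 10 members and 36.7% of all genes. Time of collection, age and any difference in handling of the tissue cannot be told apart in this design.

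Cd14 rose the most. In the 9 libraries of 10 weeks it ranged from 2.41 to 6.49 CPM with a median of 4.18, and in the 9 libraries after cessation from 4.91 to 36.0 with a median of 10.6. In 7 of the 9 cessation libraries Cd14 exceeded every library of 10 weeks. The log2 fold change was 1.90 ± 0.31 (95% interval 1.25 to 2.56, edgeR adjusted p = 0.00401), and Cd14 passed in each of 18 fits that left out 1 library. Mrc1 ranged from 13.3 to 26.0 CPM (median 21.2) at 10 weeks and from 20.0 to 55.7 (median 38.8) after cessation, where 6 of 9 libraries exceeded all those of 10 weeks. Its log2 fold change was 0.72 ± 0.17 (adjusted p = 0.0175), and it too passed in all 18 of those fits. Group means of Cd14 went from 3.13 ± 1.10 to 20.4 ± 15.6 CPM in controls, from 4.15 ± 0.394 to 19.9 ± 10.3 with 6% EtOH and from 4.83 ± 1.46 to 8.09 ± 2.13 with 10% EtOH.

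Lyz2 ranged from 30.2 to 73.5 CPM (median 46.5) at 10 weeks and from 43.9 to 142.7 (median 58.1) after cessation. It rose by 0.72 ± 0.20 on the log2 scale (adjusted p = 0.0298), and 4 of 9 cessation libraries exceeded all those of 10 weeks. By group, mean Lyz2 went from 33.04 ± 3.55 to 97.4 ± 44.6 CPM (SD, n = 3) in controls, from 49.7 ± 7.66 to 70.8 ± 34.0 with 6% EtOH and from 60.7 ± 13.5 to 64.8 ± 25.0 with 10% EtOH. This call was kept in 10 of the 18 fits that left out 1 library, with adjusted p up to 0.0724, and was lost when both libraries with unlike identifiers were left out. C1qa (0.39 ± 0.15, adjusted p = 0.0710) and C1qb (0.49 ± 0.19, adjusted p = 0.0810) came next and did not pass. Csf1r, C1qc, Adgre1, Cd68 and Cx3cr1 ran from 0.31 ± 0.16 for C1qc down to 0.038 ± 0.13 for Cx3cr1 (95% interval -0.23 to 0.31). Without control replicate 2 after cessation, Csf1r, C1qa and C1qb passed as well, so that 6 members did, among 5811 genes. With all 18 libraries 3335 genes passed. The share of all tested genes without that replicate is not given here.

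Within the controls alone, no member passed between the times, where 0.118% of all genes did. The fitted values lay above 0 for 10 of 10, against 53.8% of all genes, with a median of 0.84 against 0.046. At an unadjusted p under 0.05 stood 7 members and 20.3% of all genes. The largest were those of Cd14 at 2.70 ± 0.55 (adjusted p = 0.0604), Lyz2 at 1.56 ± 0.36 (adjusted p = 0.0851) and Mrc1 at 1.14 ± 0.29 (adjusted p = 0.0946). These genes and Adgre1 had groups that did not overlap, 4 of 10 members, all of them higher, where 25.1% of all genes did so in either direction and 2235 of 18618 as higher. Control replicate 2 after cessation lay near the 10-week level for most members, for example at 4.91 CPM for Cd14 and 43.3 for Csf1r. Without it, genes past the threshold went from 22 to 2724, and 8 of the 10 members passed, all but Adgre1 and Cx3cr1. Without replicate 1 of the 10% EtOH group after cessation, a library outside this comparison, Lyz2, Mrc1 and Cd14 passed, among 242 genes. Shares of all tested genes in these fits are not given here, so the member counts cannot be set against them.

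**Figure D4:**
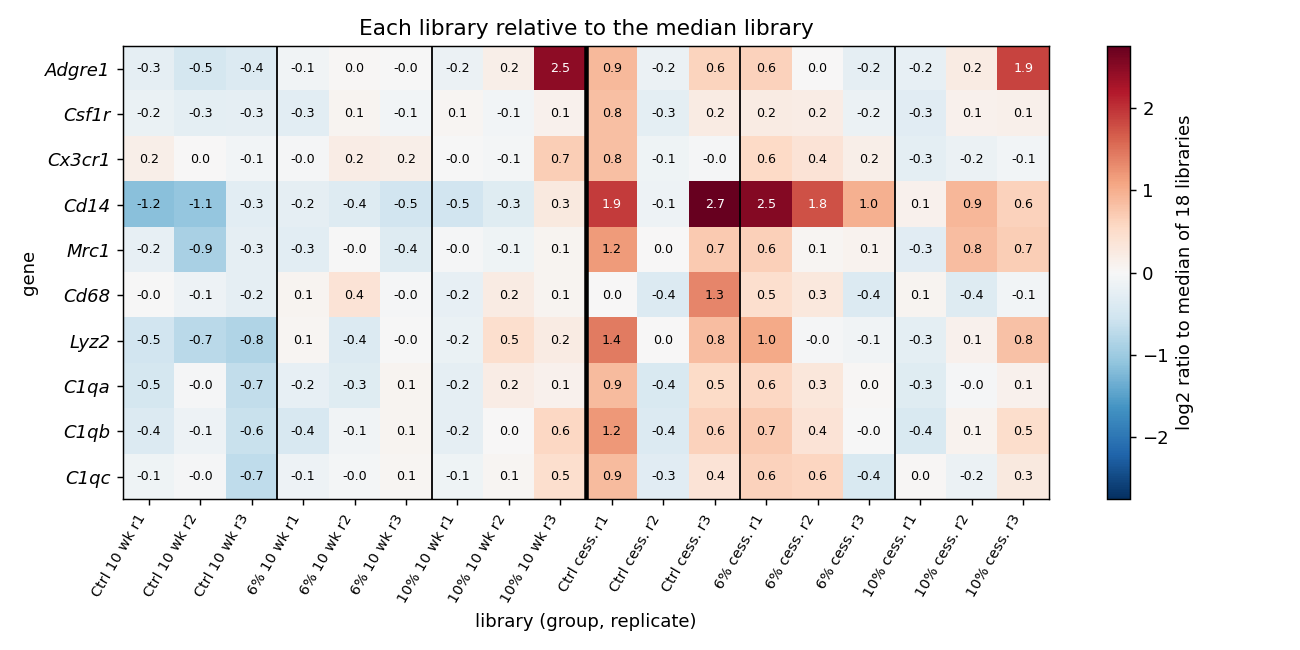
Log2 ratio of each gene's CPM (rows) to its own median over the 18 libraries, for every library (columns), with the groups divided by lines and the times by a thick line. Control replicate 1 after cessation is high for nearly every gene (median 0.88), while control replicate 2 of the same group (median -0.21) looks like the libraries of 10 weeks.

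The 3 chains of C1q were high and low in much the same libraries. C1qa held 24.7, 34.0 and 21.7 CPM in the 10-week controls, 29.6, 27.8 and 36.5 with 6% EtOH, and 29.3, 39.9 and 37.5 with 10% EtOH. After cessation C1qa held 63.9, 26.0 and 49.9 CPM in controls, 51.7, 43.2 and 35.6 with 6% EtOH, and 27.8, 34.0 and 37.6 with 10% EtOH. The highest and the lowest libraries of C1qa, replicate 1 of the cessation controls and replicate 3 of the 10-week controls, were also the highest and the lowest for C1qb and C1qc. C1qb stood at 67.0 and 19.2 CPM in those libraries and C1qc at 50.1 and 17.002.

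Over the 18 libraries C1qa and C1qb had a Pearson r of 0.93 and a Spearman rho of 0.89 on log2 CPM (permutation test, adjusted p = 9e-05 and 0.000225 over 45 pairs of members). The r was 0.79 within the 9 libraries of 10 weeks, 0.97 within those after cessation and 0.89 without the 2 libraries farthest from the median. C1qb and C1qc had an r of 0.88 and a rho of 0.80 (adjusted p = 9e-05 and 0.0009), with 0.91 and 0.84 within the times and 0.79 without the 2 farthest libraries. For C1qa and C1qc r was 0.85 and rho 0.83 (adjusted p = 9e-05 and 0.00054), with 0.81 and 0.84 within the times and 0.74 without the 2 farthest libraries. Pairs outside the chains were as close, Lyz2 and C1qa with r = 0.86 among them. The raw p-value of the r values between chains, 1e-05, is the smallest that 100000 permutations can give. The genes outside the list most like the mean of the 3 chains, with group means removed, were Mpeg1 (r = 0.93), which encodes a pore-forming protein of macrophages, and Lgals9 (0.92), Ctsz (0.92), Niban1 (0.91) and Elf4 (0.91).

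C1qb and C1qc lie beside each other on mouse chromosome 4, and their upstream sequences are shown here because both levels moved together. C1qa followed C1qb more closely (r = 0.93) than C1qc did (0.88), but it had no entry in the promoter source used and is not shown. That of Cd68, the member that followed the others least, is shown beside them. Each is the 250 bases before the start of the gene, 5′ to 3′ on the gene's strand, from RefSeq on GRCm38.p6, an earlier build than the GRCm39 of the counts. Capitals mark GAGGAA or its complement TTCCTC, the core bound by PU.1 (Spi1), a transcription factor of the myeloid lineage, and TGANTCA, the site of AP-1. These are chr4:136886201-136886450 (minus strand) for C1qb, chr4:136892915-136893164 (minus strand) for C1qc and chr11:69666171-69666420 (minus strand) for Cd68.
C1qb: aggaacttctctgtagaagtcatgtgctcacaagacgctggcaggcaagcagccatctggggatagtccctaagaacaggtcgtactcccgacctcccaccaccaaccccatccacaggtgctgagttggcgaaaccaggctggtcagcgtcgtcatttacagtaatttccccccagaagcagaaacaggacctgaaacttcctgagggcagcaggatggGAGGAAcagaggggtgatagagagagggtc
C1qc: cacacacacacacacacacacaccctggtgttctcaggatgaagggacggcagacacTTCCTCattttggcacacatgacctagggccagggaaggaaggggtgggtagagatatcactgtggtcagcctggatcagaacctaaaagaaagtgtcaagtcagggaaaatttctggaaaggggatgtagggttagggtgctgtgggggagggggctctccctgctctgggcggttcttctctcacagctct
Cd68: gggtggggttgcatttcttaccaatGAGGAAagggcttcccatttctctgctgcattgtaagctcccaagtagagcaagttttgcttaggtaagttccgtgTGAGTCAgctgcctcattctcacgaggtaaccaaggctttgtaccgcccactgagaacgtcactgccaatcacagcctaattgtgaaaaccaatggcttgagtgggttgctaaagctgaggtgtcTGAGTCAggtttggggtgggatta

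The window of C1qb held 1 GAGGAA, ending 24 bases before the start. C1qc held 1 on the other strand, 187 bases before the start, and Cd68 held 1, 219 bases before it, together with 2 AP-1 sites. Of the other members with an entry that could be shown, Mrc1 held 3 GAGGAA matches, and Lyz2 and Cx3cr1 held 0. Of all 32851 windows of this length, 23.3% held GAGGAA on either strand and 6.75% held TGANTCA. The motifs do not overlap each other, and a match describes letters only.

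All 45 pairs of members had a positive r over the 18 libraries, from 0.17 for Cd68 with Cx3cr1 to 0.93 for C1qa with C1qb, with a median of 0.65. The median r was 0.50 within the 10-week libraries and 0.71 within those after cessation. In 33 of 45 pairs the r had an adjusted p under 0.05 (permutation test), and in 30 of 45 the rho did. Libraries were permuted over all groups and both times, so these p-values also take in differences shared between groups and times. With group means removed the median r was 0.63, without a test. The same counts for pairs of other genes were not made, so they cannot be read as particular to the members. Without the 2 farthest libraries, 44 of 45 were still positive. Csf1r and C1qb followed each other closely, with r = 0.90 and rho = 0.92 (adjusted p = 9e-05 and 0.000225), 0.69 and 0.95 within the times and 0.85 without the 2 farthest libraries.

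**Figure D5:**
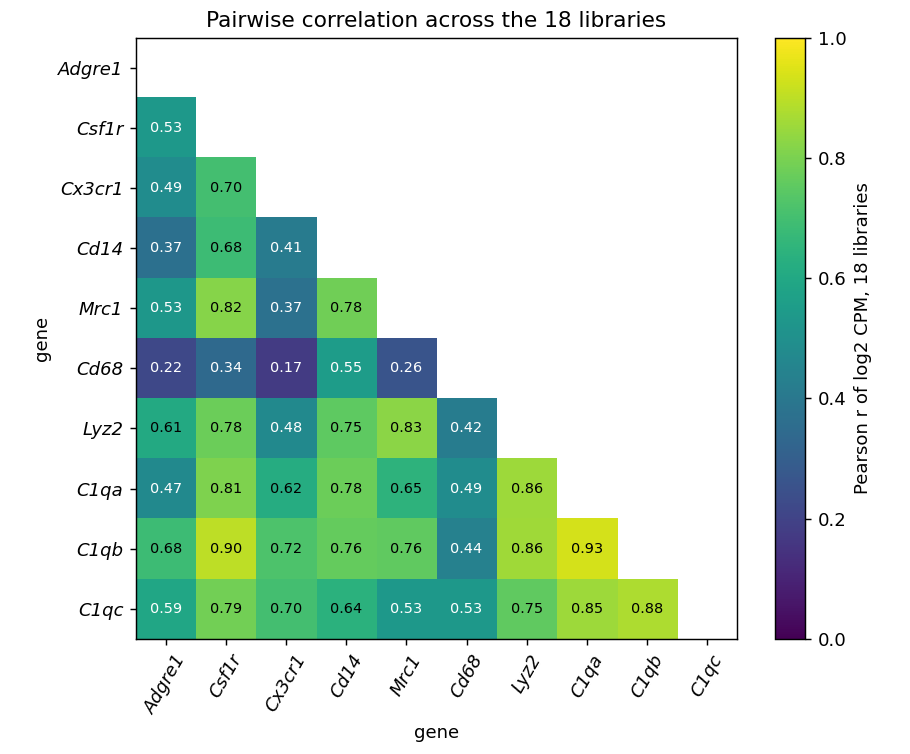
Pearson r of log2 TMM CPM for the 45 pairs of genes over the 18 libraries, in colour from 0 to 1 and as numbers. The C1q chains, Csf1r and Lyz2 form the brightest block, up to 0.93, and the row of Cd68 is the darkest, down to 0.17.

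Adgre1 and Csf1r, both textbook macrophage markers, had r = 0.53 (adjusted p = 0.0466) and rho = 0.81 (adjusted p = 0.000619), and r = 0.87 without the 2 libraries in which Adgre1 was farthest from its median. The r was 0.61 and 0.55 within the times. Cd68 had the lowest median r with the other 9 members, at 0.42, and Cx3cr1 the next, at 0.49. The 5 genes closest to Cd68 within groups were Dedd2, Neu3, Rell1, Tns4 and Serpina3n (r from 0.91 to 0.94), and none of these is on the phagocyte lists used here. Dedd2, for example, stood at 41.7 CPM in control replicate 3 after cessation, the library where Cd68 peaked at 61.2, and between 15.5 and 28.2 elsewhere. As Dedd2 was picked by its likeness to Cd68 in these libraries, a shared peak follows from the choice.

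Cd14 had a median r of 0.68 with the other members. Its closest genes within groups were Ppp1r14a (r = 0.98), Defb1 (0.97), Fam107b (0.97), F3 (0.96) and Gpr146 (0.95). Defb1 encodes a beta-defensin of epithelia and F3 encodes tissue factor, which starts blood clotting. F3 stood at 43.7, 14.5 and 84.3 CPM in the cessation controls, the order in which Cd14 stood at 20.2, 4.91 and 36.0. F3 was picked by its likeness to Cd14 in these libraries, so a shared order follows from the choice. For Mrc1 the closest was Igf1 (r = 0.96), a growth factor, followed by Abi3bp (0.96) and Cd86 (0.94), a co-stimulatory ligand of antigen-presenting cells. For Csf1r they were Pald1 (0.92) and Fcgr1 (0.92), the high-affinity IgG receptor, and for Cx3cr1 Cotl1 (0.90) and Mpeg1 (0.88). The genes closest to Lyz2 were Mfap5 (r = 0.92), Fat3 (0.92), Jdp2 (0.91), Tgfbi (0.89) and Rassf2 (0.89). Whether cells other than phagocytes carried part of Lyz2 or Cd14 was not tested. These correlations are descriptions over 18 libraries, which share their depth and tissue make-up.

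The ligands of these receptors were read in the same libraries. Il34 stood at 24.4, 27.6 and 18.1 CPM in the 10-week controls and at 34.7, 32.1 and 33.3 with 10% EtOH, without overlap, a log2 fold change of 0.51 ± 0.19 (adjusted p = 0.301). It fell by 0.36 ± 0.11 on the log2 scale from 10 weeks to cessation over all treatments (adjusted p = 0.0373), with -0.050 ± 0.19 in the controls alone (adjusted p = 0.906). Csf1, the other CSF1 receptor ligand, had -0.20 ± 0.17 with 10% EtOH at 10 weeks (adjusted p = 0.632) and -0.49 ± 0.17 after cessation (adjusted p = 0.744). Cx3cl1, the membrane-bound ligand of Cx3cr1, held 94.7, 88.9 and 101.0 CPM in the 10-week controls and 72.5, 84.8 and, in replicate 3, 47.9 with 10% EtOH, also without overlap (log2 fold change -0.47 ± 0.19, adjusted p = 0.311). It fell by 0.33 ± 0.11 between the times (adjusted p = 0.0451). Tlr4, the receptor to which CD14 passes its ligand, had 0.90 ± 0.31 with 10% EtOH at 10 weeks (adjusted p = 0.299), and its partner Ly96 had 0.75 ± 0.29 (adjusted p = 0.307). The sum over all listed genes of Toll-like receptor signalling was lower at 10 weeks with EtOH, unlike the fitted values of Tlr4 and Ly96. The sums ran from 444 to 462 CPM in controls, 400 to 421 with 6% EtOH and 359 to 415 with 10% EtOH. Irak1, Lbp and Nfkbia, at up to 205, 90.3 and 85.0 CPM in their highest libraries, weigh most in them. Tlr4 and Ly96 reached at most 12.8 and 8.04 CPM, so the sums say little about either. Which genes set the lower sums was not tested.

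None of the 7 related gene lists had a member past the threshold in any comparison of EtOH with control, where 0% of all 18618 genes passed. Between the times, averaged over the treatments, several did, beside the 17.9% of all genes that passed. Of 21 tested genes of complement, 9 rose and 1 fell, with a median log2 fold change of 0.69. Those that rose included C1ra (0.92 ± 0.28, adjusted p = 0.0371) and C1s1 (0.87 ± 0.22, adjusted p = 0.0237), the proteases that C1q activates, as well as Cd93 (1.45 ± 0.32, adjusted p = 0.0162) and Cfb (1.24 ± 0.38, adjusted p = 0.0353). Of 16 genes of monocyte recruitment, 9 rose and 1 fell, with a median of 0.92. Ccl2, the main ligand for monocyte recruitment, rose from between 0 and 0.268 CPM at 10 weeks to between 0.265 and 11.3 after cessation (adjusted p = 0.000378), and Ccl7 rose with it (adjusted p = 0.000343).

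Of 18 phagocytic and scavenger receptors, 7 rose and 2 fell, with a median of 0.52. Clec7a, the receptor for fungal beta-glucan, rose by 1.15 ± 0.21 (adjusted p = 0.00610) and Msr1, a scavenger receptor, by 1.08 ± 0.26 (adjusted p = 0.0185), while Tyro3, a receptor tyrosine kinase, fell by 0.69 ± 0.17 (adjusted p = 0.0195). Of 20 genes of CSF1 receptor signalling and lineage factors 2 rose and 3 fell, among them Tyrobp, an adaptor of myeloid receptors, at 0.55 ± 0.17 (adjusted p = 0.0338). Of 22 genes of phagosome and lysosome 3 rose and 4 fell. Of 19 genes of Toll-like receptor signalling 2 rose, the NF-kB inhibitors Tnfaip3 (1.84 ± 0.23, adjusted p = 0.000343) and Nfkbia (0.74 ± 0.17, adjusted p = 0.0164). Of 19 other phagocyte markers, Cd83 and Cd86 rose. Cd83, a marker of activated dendritic cells that other cells also induce, rose by 2.98 ± 0.27 (adjusted p = 1.17e-05), without overlap between the times, and by 3.71 ± 0.47 in the controls alone (adjusted p = 0.00338).

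Markers of other cell types also differed between the times. Of 12 endothelial genes 6 rose and of 8 smooth muscle genes 7 rose, while 5 of 12 principal cell genes fell, beside 10.7% of all genes that passed as higher and 7.21% as lower. The smooth muscle sum had a median of 1707 CPM at 10 weeks and 1745 after cessation. Actg2, at up to 1802 CPM, weighs most in that sum, and Myh11 comes next at up to 537 CPM. Summed endothelial markers (12 genes) ran from 162 to 237 CPM at 10 weeks and from 169 to 562 after cessation. Those of fibroblasts (10 genes) ran from 675 to 1079 and from 732 to 1410, those of red blood cells (6 genes) from 15.7 to 139 and from 29.8 to 167, and those of dendritic cells (10 genes) from 26.8 to 35.4 and from 26.7 to 86.3. Among the dendritic cell genes, Itgae reached 62.1 CPM and Zbtb46 13.9 CPM in their highest libraries, and the others at most 4.75 CPM. Cessation control replicates 1 and 3 and 6% EtOH replicate 1, where Cd14 was highest, held 344, 562 and 508 CPM of endothelial markers. Control replicate 2, where Cd14 was lowest after cessation, held 169 CPM. Summed basal cell markers ran from 355 to 449 CPM at 10 weeks and from 298 to 716 after cessation, the highest in a cessation control. A list of 7 immediate early genes, added after the values were seen, summed to 120 to 239 CPM at 10 weeks and 395 to 1710 after cessation. The part of any of these in the rise of Cd14, Mrc1 and Lyz2 was not tested. Neutrophil markers were near 0, with S100a8 and S100a9 without reads in 16 of 18 libraries and Elane in 18. Mast cell markers summed to 43.3 to 64.7 CPM at 10 weeks and 40.7 to 55.3 after cessation. Kit, counted in every library, reached 64.1 CPM, while no other mast cell marker exceeded 1.08 CPM and Fcer1a was at 0 in all 18. T and NK cell markers (16 genes) summed to 11.4 to 16.7 CPM at 10 weeks and 12.3 to 48.7 after cessation, the highest in control replicate 1.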

How the data were processed

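For each library the authors deposited raw counts by gene symbol. The submitters' processing notes name featureCounts, STAR, Trimmomatic and the build GRCm39 (mm39). Their versions, the annotation release, strandedness and treatment of multi-mapped reads: not given in the sources used here. Total RNA came from a Qiagen column kit and was read on an Illumina HiSeq, per the labels' protocols. Members and gene lists were chosen with earlier results of these data known.

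Genes were kept with filterByExpr (minimum count 10, minimum total 15) and scaled by TMM (factors 0.914 to 1.20). edgeR 4.0.16 (R 4.3.3) fitted robust quasi-likelihood models over all 18 libraries with 1 term per group, two-sided, with Benjamini-Hochberg adjustment over 18618 genes (threshold 0.05, common biological variation 25.4%). On data simulated from these libraries, with 18124 genes, the 10% EtOH comparison at 10 weeks recovered 48% of genes changed 2-fold and 90% of those changed 4-fold. Correlations used log2 CPM (prior count 2) and 100000 permutations. Levels per kb used the merged length of all annotated exons of each gene in GENCODE M21. Alternatives were RLE factors, no filter, DESeq2 1.42.0, limma 3.58.1 voom, subsets of libraries and leaving out each library.

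All 10 members were named in every comparison, with the ligands and partners Csf1, Il34, Cx3cl1, Tlr4, Ly96, C1ra and C1s1. From the related lists, at most the 4 genes with the largest change past the threshold per list and comparison could be named. Genes most alike were the 5 of highest r after group means were removed, among 13267 genes whose average log2 CPM was 1 or more. Adgre1, Rac2, Fcrls, F3, Dedd2 and Ighm levels by library were chosen for description after their values were seen.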

Additional observations from a re-analysis of the deposited data

Results flagged for a closer look

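Tlr4, the lipopolysaccharide receptor that works with CD14, had 6% EtOH effects of opposite sign at both times. The difference, cessation minus 10 weeks, was -1.16 ± 0.44 (SE) on the log2 scale (edgeR unadjusted p = 0.0167, adjusted p = 0.9996). At 10 weeks every 6% EtOH library (5.93, 9.06 and 5.61 CPM) lay above every control (4.88, 3.998 and 4.86 CPM). After cessation every 6% EtOH library (6.76, 6.96 and 4.72 CPM) lay below every control (11.99, 7.12 and 8.40 CPM). The difference did not pass after adjustment over all genes.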

How the results depend on the processing

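No paired analysis was possible because the labels number no replicates, and the numbers given here are only names. The 10 members' median kept its sign under all alternatives in every comparison except 6% EtOH after cessation (-0.52 to 0.030).

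Without the low-count filter, genes past the threshold numbered 44 and 736 (6% and 10% EtOH at 10 weeks), 51 and 407 (after cessation), 60 and 585 (10% against 6% EtOH at both times), 1740 (controls between the times) and 88 and 385 (differences of the 6% and 10% effects). Members then passed in numbers of 2 (10% EtOH, 10 weeks), 1 (10% EtOH, cessation), 1 and 2 (dose against dose), 9 (controls between the times), 6 (all treatments between the times) and 1 and 5 (differences). More genes were tested without the filter, and the shares of all tested genes are not given here. These member counts therefore cannot be set against such a share. DESeq2 called 73 genes (10% EtOH, 10 weeks), 1 (6% EtOH, cessation), 1 (10% against 6% EtOH, cessation), 2 (difference of the 10% effects) and 993 with 3 members (controls between the times), where voom called 3 genes and the 6 controls alone 0. The 9 libraries of 10 weeks alone gave 1059 genes and 1 member for 10% EtOH. Leaving out both libraries of unlike identifier, an alternative chosen after seeing the data, left 1498 genes between the times. The cause of these changes was not tested. Main counts of 0 in the 4 comparisons of EtOH with control stand beside 440, 2501, 301 and 1240 genes at an unadjusted p under 0.05.

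Leaving out 1 library at a time gave 0 to 191 genes and 0 to 1 members for 10% EtOH after cessation, 0 to 2724 genes and 0 to 8 members for controls between the times, and 850 to 5811 genes and 2 to 6 members for all treatments between the times. Shares of all tested genes in these fits are not given here.

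Uncalled values that changed sign were, without both unlike libraries, Cx3cr1 -0.059 (10% EtOH, 10 weeks), -0.017 (6% EtOH, cessation) and -0.15 (10% against 6% EtOH, 10 weeks), Cd14 -0.054 (the same), Lyz2 0.34 (10% against 6% EtOH, cessation) and Adgre1 0.029 (difference of the 10% effects). With voom they were Cd14 0.32 (6% EtOH, cessation) and Cx3cr1 0.050 (difference of the 6% effects). With 1 library left out, 28 member values changed sign. For 10% EtOH at 10 weeks this was Cx3cr1 (-0.059 to 0.35). For 6% EtOH after cessation these were Csf1r (-0.45 to 0.10), Cd68 (-0.64 to 0.35), C1qa (-0.38 to 0.20), C1qb (-0.55 to 0.17), C1qc (-0.29 to 0.27), Cx3cr1 (-0.087 to 0.44) and Cd14 (-0.52 to 0.66). For 10% EtOH after cessation they were Adgre1 (-0.50 to 0.76), Cd68 (-0.93 to 0.060) and Mrc1 (-0.48 to 0.069). For 10% against 6% EtOH they were Cd68 (-0.22 to 0.011), Cx3cr1 (-0.15 to 0.26) and Cd14 (-0.054 to 0.38) at 10 weeks, and Adgre1 (-0.17 to 1.08), Lyz2 (-0.47 to 0.36), Csf1r (-0.22 to 0.020) and Mrc1 (-0.028 to 0.46) after cessation. Between the times they were Cd68 (-0.033 to 0.95) and Cx3cr1 (-0.10 to 0.43) in controls, and Adgre1 (-0.079 to 0.66), Cd68 (-0.045 to 0.27) and Cx3cr1 (-0.088 to 0.13) over all treatments. For the differences of effects they were Cd68 (-0.92 to 0.070), C1qc (-0.51 to 0.053), Cx3cr1 (-0.18 to 0.35) and Cd14 (-0.94 to 0.26) with 6% EtOH and Adgre1 (-2.19 to 0.029) with 10% EtOH. Scaled by library total alone, group means were 13.4 CPM for Adgre1 (6% EtOH, 10 weeks), 49.5 for Csf1r and 22.7 for Mrc1 (10% EtOH, 10 weeks).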
